A study of Mus musculus with 11 samples.

Results

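The expression of 4 genes of glucose handling and energy sensing was followed in mouse gingival epithelium with and without a ligature. They were Slc5a1, a sodium-coupled glucose transporter, Ppp1r3b, a glycogen-targeting subunit of protein phosphatase 1, Pfkp, the platelet-type phosphofructokinase of glycolysis, and Stk11, which encodes the kinase LKB1. They are 4 of the 178 genes that the deposited table names, all 4 were matched by name and identifier, and all 4 passed the filter on low counts, as did 176 of the 178. They were chosen with their values in these groups known, and the table appears to hold genes picked for a difference from naive (in DESeq2 with a term for the library sets of the deposited batch correction, the smaller of a gene's unadjusted p-values against naive never exceeded 0.0103). Their levels and fold changes between groups are therefore given as a description and carry no test.

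Gingiva came from male B6 mice and was loosened with Dispase, after which the epithelium was lifted off with forceps and its polyA RNA was sequenced. Naive mice (n = 4 libraries) were labelled as naive, with no thread named for them. Ligature mice (n = 3) had a silk thread tied around both second upper molars, a model in which plaque held at the gum margin leads to bone loss. Removal mice (n = 4) had the same thread, which was taken off on day 3. The labels give neither the age of the mice nor the day of collection, nor do they say whether each library is 1 animal, so the spread between libraries may be partly technical.

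Epithelial cells take up glucose either down its gradient through facilitative carriers or against it, coupled to sodium, as Slc5a1 does. Glucose that enters is phosphorylated and then burned through glycolysis, where phosphofructokinase makes the committed step, or stored as glycogen, whose synthesis rises when protein phosphatase 1 is brought to the glycogen particle and activates glycogen synthase. LKB1 phosphorylates and activates AMPK, which senses a low energy charge, and a set of related kinases to which Sik3 belongs. Stratified oral epithelium renews itself constantly and holds glycogen in its upper layers.

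Promoter sequences are shown for Slc5a1 and Pfkp. Among those of the 4 genes with a RefSeq entry, they had the larger shifts with the ligature, Slc5a1 lower and Pfkp higher. RefSeq promoters (build GRCm38.p6, while the submitters' processing notes name GRCm39) were matched for 3 of the 4 genes, Slc5a1, Pfkp and Stk11. Ppp1r3b was not matched. Each runs from 250 bases before to 50 after the annotated start, 5′ to 3′ on the gene's strand. Capitals mark every match, on either strand, to any of 7 motifs. The E-box was searched as CACGTG, and the core of the hypoxia response element, which every E-box also contains, was searched as ACGTG. The GC box was searched as GGGCGG and the CCAAT box by the letters of its name. The AP-1 site was searched as TGANTCA, the cyclic AMP response element as TGACGTCA and the TATA box as TATAAA. The Slc5a1 promoter lies at chr5:33103969-33104268 on the + strand and the Pfkp promoter at chr13:6648722-6649021 on the - strand.
Slc5a1: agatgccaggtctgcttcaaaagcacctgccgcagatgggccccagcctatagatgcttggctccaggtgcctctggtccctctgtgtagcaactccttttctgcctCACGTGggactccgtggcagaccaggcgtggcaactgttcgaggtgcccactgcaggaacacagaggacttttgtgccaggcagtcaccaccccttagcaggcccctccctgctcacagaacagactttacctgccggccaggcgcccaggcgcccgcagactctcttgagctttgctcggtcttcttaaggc
Pfkp: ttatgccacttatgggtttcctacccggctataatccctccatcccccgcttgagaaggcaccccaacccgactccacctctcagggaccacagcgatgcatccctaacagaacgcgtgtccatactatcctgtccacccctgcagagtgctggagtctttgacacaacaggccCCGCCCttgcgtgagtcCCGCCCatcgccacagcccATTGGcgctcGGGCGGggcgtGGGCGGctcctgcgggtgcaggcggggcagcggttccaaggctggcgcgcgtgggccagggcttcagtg

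The Slc5a1 promoter held 1 E-box, which starts 143 bases before the gene's start, and no GC box. An E-box was present in 7.15% of the 32851 RefSeq promoters of this length, and the ACGTG core in 19.6%. The Pfkp promoter held 4 GC boxes, starting 76, 59, 30 and 19 bases before the start, and a CCAAT box on the other strand. A GC box was present in 35.7% of promoters and a CCAAT box in 37.4%. In the Stk11 promoter there were 3 CCAAT boxes, 2 ACGTG cores and 1 GC box. The Sik3 promoter, like that of Slc5a1, held 1 E-box, 120 bases before the start. No AP-1 site, cyclic AMP response element or TATA box was found in the Slc5a1, Pfkp, Stk11 or Sik3 windows (7.81%, 1.79% and 13.6% of all promoters hold one). These matches describe letters in a window and were not tested for use. GC content was 60.3% for Slc5a1, 64.7% for Pfkp and 61.3% for Stk11, against a median of 52.7% over all promoters.

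With the ligature in place, on the authors' scale, Slc5a1 stood lower and Ppp1r3b higher than in naive epithelium. Each did so without overlap between the groups, as did 74.4% of the genes tested. After removal both overlapped the naive libraries. Pfkp stood higher with the ligature by a smaller amount, and Stk11 shifted little, both overlapping the naive group. After removal the Stk11 libraries lay below all naive ones by a narrow gap, where 43.8% of genes tested had no overlap. Values are normalised read counts, the authors' raw counts divided by their size factor for the library. In these bulk samples, fewer cells of a type and less RNA per cell cannot be told apart.

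Slc5a1 (ENSMUSG00000011034), which carries glucose and galactose into cells together with sodium, had 2715, 3160, 1880 and 2343 normalised counts in naive libraries 1 to 4. Ligature libraries 1 to 3 had 1661, 1379 and 1657, and removal libraries 1 to 4 had 1994, 3450, 3691 and 2733. All 3 ligature libraries lay below every naive and every removal library, while removal and naive overlapped. Group means were 2525 ± 544.3 (SD, n = 4), 1566 ± 161.7 (n = 3) and 2967 ± 765.5 (n = 4). The fitted log2 fold change was -0.69 ± 0.21 (SE, edgeR) for ligature against naive and 0.23 ± 0.19 for removal against naive. Removal against ligature gave 0.92 ± 0.21, a 1.90-fold higher level after the thread was taken off. With a term for the library sets this value was 0.70 ± 0.16.

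Ppp1r3b (ENSMUSG00000046794) encodes the targeting subunit first described in liver, which tethers the phosphatase to glycogen. Naive libraries 1 to 4 had 180.4, 230.6, 262.8 and 233.7 normalised counts, and ligature libraries 1 to 3 had 579.4, 488.5 and 337.6. Removal libraries 1 to 4 had 293.7, 188.5, 224.5 and 181.3. The lowest ligature library was above the highest naive and the highest removal library, and the ligature libraries themselves spanned a wide range. The coefficient of variation was 26.1% with the ligature, where counting error alone would give 4.41%. The log2 fold changes were 1.05 ± 0.21 for ligature against naive, -0.03 ± 0.20 for removal against naive and -1.08 ± 0.21 for removal against ligature. Among the 176 genes tested it ranked 5 from the highest in the first of these comparisons and 174 in the last.

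Pfkp (ENSMUSG00000021196) encodes 1 of the phosphofructokinase isoenzymes. It had 2208, 2271, 1645 and 1794 normalised counts in naive libraries 1 to 4 and 3006, 2154 and 2193 in ligature libraries 1 to 3. Removal libraries 1 to 4 had 2033, 2173, 2353 and 1927. Ligature library 1 was far above the others of its group, which lay inside the naive range. The log2 fold changes were 0.31 ± 0.15 for ligature against naive, 0.10 ± 0.14 for removal against naive and -0.21 ± 0.15 for removal against ligature. Without ligature replicate 1 the first of these was 0.13.

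Stk11 (ENSMUSG00000003068) had 2050, 2121, 1818 and 1796 normalised counts in naive libraries 1 to 4. Ligature libraries 1 to 3 had 1948, 1755 and 1641, and removal libraries 1 to 4 had 1650, 1771, 1680 and 1768. The ligature and naive libraries overlapped, whereas all 4 removal libraries lay below all 4 naive ones, by a narrow gap. Its removal libraries were the tightest group of the 4 genes, with a coefficient of variation of 3.59%, against 2.41% from counting error alone. The log2 fold changes were -0.13 ± 0.09 for ligature against naive, -0.18 ± 0.09 for removal against naive and -0.05 ± 0.09 for removal against ligature.

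**Figure D1:**
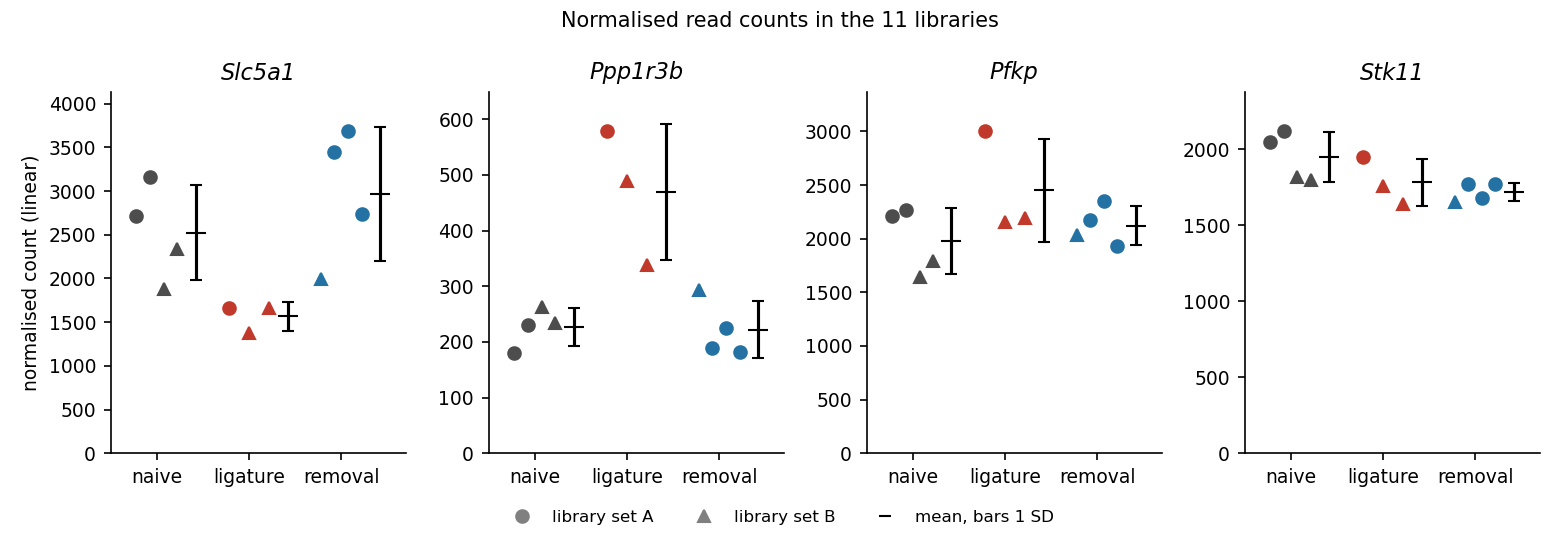
Normalised read counts (linear axis from 0) of Slc5a1, Ppp1r3b, Pfkp and Stk11 in each naive (n = 4), ligature (n = 3) and removal (n = 4) library; circles and triangles mark library sets A and B read from the deposited correction, and the black bars give the group mean and 1 SD. The 3 ligature libraries of Slc5a1 lie between 1379 and 1661, below all others, and those of Ppp1r3b between 337.6 and 579.4, above all others.

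At an adjusted p under 0.05 in edgeR, 2 of the 4 genes were called for ligature against naive, Ppp1r3b higher and Slc5a1 lower, where 85.2% of the genes tested were called, 28.4% higher and 56.8% lower. For removal against naive 0 of the 4 were called in edgeR (37.5% of genes tested, 13.1% higher and 24.4% lower), with 0 at an unadjusted p under 0.05. DESeq2 on the same scale also called 0 of them, with 1 (Stk11) at an unadjusted p under 0.05. Removal against ligature called 2 of the 4, Slc5a1 higher and Ppp1r3b lower (19.9% of genes tested, 17.0% higher and 2.84% lower). The groups did not overlap in 2, 1 and 2 of the 4 genes in these comparisons, against 74.4%, 43.8% and 29.5% of the genes tested. Nothing is read from these counts, because the genes were chosen from these contrasts. The median log2 fold change of the 4 genes was 0.09, 0.03 and -0.13, beside -0.38, -0.17 and 0.20 over all genes tested. The 2 comparisons with naive share the naive libraries, and each other pair shares a group as well.

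**Figure D2:**
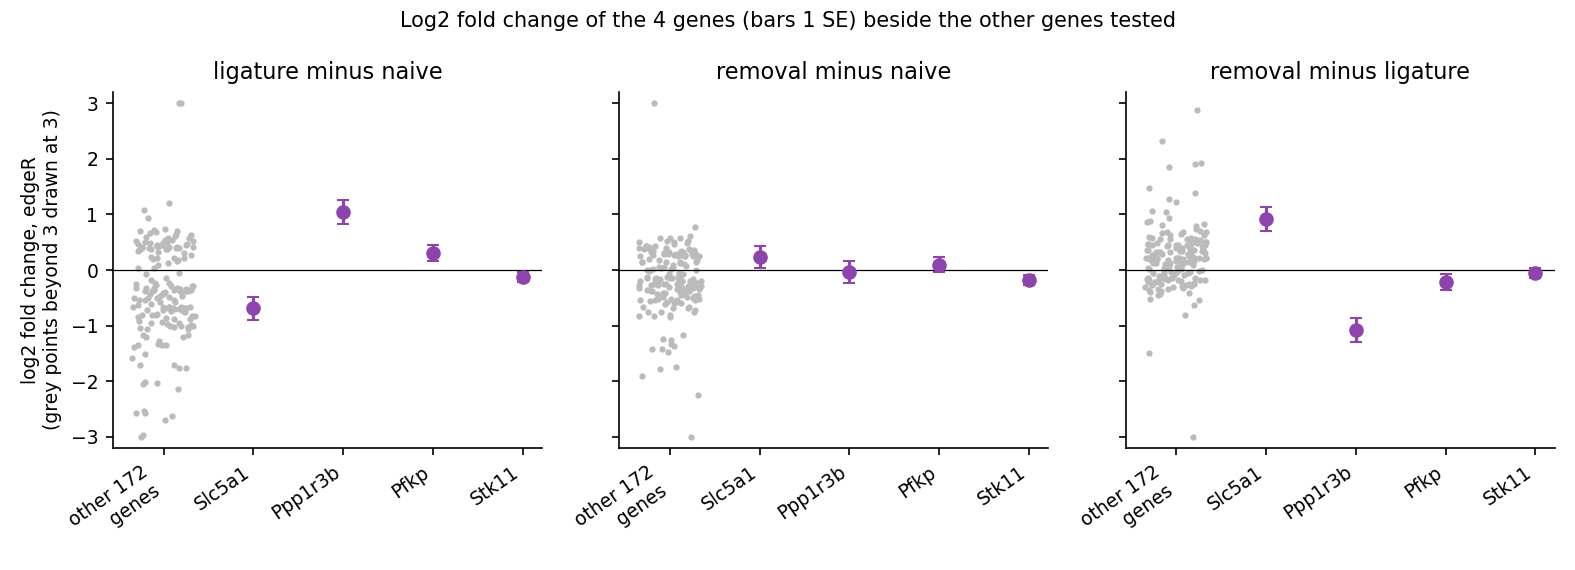
Log2 fold change in edgeR of the 4 genes (purple, bars 1 SE) in 3 comparisons, beside the other 172 genes tested (grey points, those beyond 3 drawn at 3). Slc5a1 and Ppp1r3b lie on opposite sides of 0 for ligature against naive (-0.69 and 1.05), near 0 for removal against naive and on exchanged sides for removal against ligature (0.92 and -1.08).

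The calls of the last comparison were lost when any of several libraries was left out, while the fold changes stayed of similar size. For Slc5a1 the removal against ligature call was present in 6 of the 11 fits that leave out a library and absent without ligature replicates 1, 2 or 3 or removal replicates 2 or 4, with a log2 fold change of 0.80 to 1.07 over all 11. For Ppp1r3b it was present in 7 of the 11 and absent without ligature replicates 1 or 2 or removal replicates 2 or 4 (-1.27 to -0.90). Against naive, the ligature calls of both genes were present in 11 of 11 fits (Slc5a1 -0.81 to -0.56, Ppp1r3b 0.86 to 1.24). A library of the third group enters a comparison mainly through the shared estimate of spread. The fits without a removal library thus kept -0.69 and 1.05 here, and not all of the 11 fits probe a given comparison. Pfkp was called for ligature against naive in 2 of the 11 fits, those that left out naive library 2 or ligature library 2 (0.13 to 0.39 over all 11).

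The choice of scale moved these genes in step. TMM factors computed over the selected table took the median log2 fold change of all genes tested from -0.38 to -0.02 for ligature against naive. Under TMM the ligature fold change of Slc5a1 was -0.32 and no longer called, Ppp1r3b stood at 1.39, Pfkp at 0.67 and called, and Stk11 changed sign to 0.23 and was called. TMM called 65.3% of the genes tested in that comparison. On the TMM scale the Slc5a1 groups overlapped, with ligature library 3 at 1936 above naive library 3 at 1843. For removal against naive TMM gave 0.44 for Slc5a1 and 0.31 for Pfkp, both called where 41.5% of genes tested were, and 0.02 for Stk11. For removal against ligature TMM kept both calls, Slc5a1 at 0.76 and Ppp1r3b at -1.21, beside 16.5% of genes tested. Of the 4 genes, only Ppp1r3b was called for ligature against naive on both scales. TMM assumes that most genes it is given do not change, which need not hold in a table that appears picked for differences. Calls gained or lost with it therefore cannot decide whether Slc5a1, Pfkp or Stk11 changed.

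**Figure D3:**
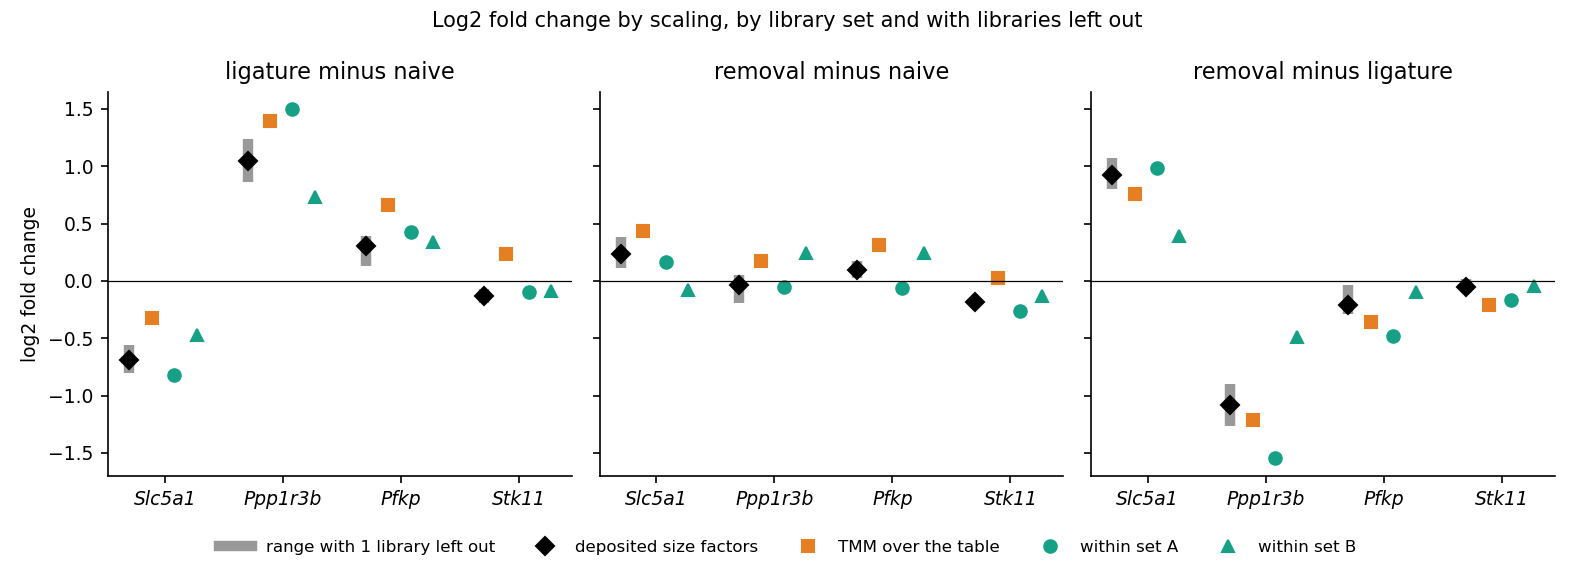
Log2 fold change of each gene in the 3 comparisons with the deposited size factors (diamonds, with the range over fits that leave out 1 library as grey bars), with TMM factors over the table (squares) and as the ratio of mean normalised counts within library set A (circles) or B (triangles). Stk11 lies at -0.13 on the deposited scale and 0.23 with TMM for ligature against naive, and Ppp1r3b at 1.50 within set A and 0.73 within set B.

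The deposited batch-corrected values divide the libraries in 2 sets, within each of which they are a linear function of the normalised counts. Of the naive libraries, replicates 1 and 2 were in set A, as were the first of the ligature libraries and removal replicates 2 to 4; the other 5 libraries made up set B. The labels name no batch. The table appears to have been selected in a fit that held such a term, so the set values are a description as well. In an edgeR fit with group and set, the log2 difference of set B from set A was -0.46 ± 0.12 (SE) for Slc5a1, -0.31 ± 0.08 for Pfkp, -0.16 ± 0.05 for Stk11 and 0.13 ± 0.17 for Ppp1r3b. The first 3 were called, beside 30.1% of the genes tested, 21.0% being called lower in set B.

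Within each set the order of the groups was kept for Slc5a1 and Ppp1r3b with the ligature. In set A the mean Slc5a1 count was 2938 in 2 naive libraries, 1661 in the single ligature library and 3291 in 3 removal libraries. In set B it was 2111 in 2 naive libraries, 1518 in 2 ligature libraries and 1994 in the single removal library. The log2 ratio of ligature to naive was thus -0.82 in set A and -0.48 in set B, and that of removal to naive was 0.16 and -0.08. For Ppp1r3b the ligature ratio was 1.50 in set A and 0.73 in set B. Whether these differ was not tested, as set A has 1 ligature library. The log2 ratio of removal to ligature was 0.99 in set A and 0.39 in set B for Slc5a1. For Ppp1r3b it was -1.55 and -0.49. With the set as a term these were 0.70 ± 0.16 and -1.045 ± 0.213, both called, where 26.7% of genes tested were.

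With the set as a term, Pfkp and Stk11 were called in comparisons where they were not called without it. For Pfkp the ligature ratio was 0.42 in set A and 0.34 in set B, and with the set as a term the log2 fold change was 0.36 ± 0.09 and called (89.2% of genes tested were called in that fit). The same fit put Pfkp at -0.32 ± 0.10 for removal against ligature, also called, as were 26.7% of genes tested. In the authors' batch-corrected values the Pfkp groups no longer overlapped, spanning 1820 to 2155 in the naive group and 2291 to 2830 with the ligature. The share of genes tested without overlap was 74.4% in normalised counts and was not counted in corrected values. For Stk11 the removal ratio to naive was -0.26 in set A and -0.13 in set B, and with the set as a term it was -0.22 ± 0.06 and called, where 71.6% of genes tested were. These calls, too, are not independent of how the table was selected.

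From 6 lists of related pathways with 168 genes, 8 genes were in the table, the 4 described and Slc5a9, Sik3, Vegfa and Adm. In the glucose uptake list 2 of 21 genes were in the table, and both, Slc5a1 and its relative Slc5a9, were called lower with the ligature, as were 56.8% of all genes tested. The glycogen list had 1 of 32 (Ppp1r3b, called higher, as were 28.4% of all genes tested) and the glycolysis list 1 of 32 (Pfkp, not called). The LKB1 and AMPK list had 2 of 47, of which Sik3 was called lower and Stk11 was not called, where 85.2% of all genes tested were called in either direction. Genes absent from this selected table were not analysed here, so these lists do not describe their pathways as a whole.

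Slc5a9 (ENSMUSG00000028544), a sodium-coupled carrier of mannose and glucose, had 829.2, 657.8, 394.8 and 597.5 normalised counts in naive libraries 1 to 4. Ligature libraries 1 to 3 had 475.4, 343.5 and 344.1, and removal libraries 1 to 4 had 371.8, 603.5, 620.2 and 482.0. One ligature library lay above the lowest naive library, naive replicate 3, and the groups overlapped. The log2 fold changes were -0.68 ± 0.24 for ligature against naive and -0.26 ± 0.22 for removal against naive. The ligature call was absent with TMM (-0.31) and in 3 of the 11 fits without 1 library. Slc5a9 was lower in set B, as was Slc5a1, at -0.56 ± 0.13. With the set as a term, removal against naive was -0.39 ± 0.14 for Slc5a9 and called, where 71.6% of genes tested were. Without that term it was not called, nor with TMM (-0.05), nor in any of the 11 fits without 1 library. For Slc5a1 the value with the set as a term was 0.11 ± 0.14 and not called. The difference between the carriers was not tested.

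Sik3 (ENSMUSG00000034135), a salt-inducible kinase activated by LKB1, had 1562, 1651, 1385 and 1439 normalised counts in naive libraries 1 to 4. Ligature libraries 1 to 3 had 1336, 1123 and 1161, all below the lowest naive library, and removal libraries 1 to 4 had 1182, 1413, 1309 and 1376, which overlapped the naive ones. Its log2 fold change was -0.32 ± 0.10 for ligature against naive and called lower, as were 56.8% of genes tested. In that comparison 74.4% of genes tested had no overlap. For removal against naive it was -0.19 ± 0.09, not called, and for removal against ligature 0.13 ± 0.10. TMM, which raised the median of all genes tested from -0.38 to -0.02, put its ligature value at 0.04. The hypoxia list had 2 of 14 genes, Vegfa at -0.07 ± 0.12 and Adm at -1.01 ± 0.22 with the ligature. Adm was called lower, as were 56.8% of genes tested. For removal against naive both were called lower, Vegfa at -0.32 ± 0.11 and Adm at -0.61 ± 0.20, as were 24.4% of genes tested. With TMM neither was called (-0.12 and -0.41). With the set as a term both were called, where 71.6% of genes tested were. The calls were present in 3 and 5 of the 11 fits without 1 library.

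**Figure D4:**
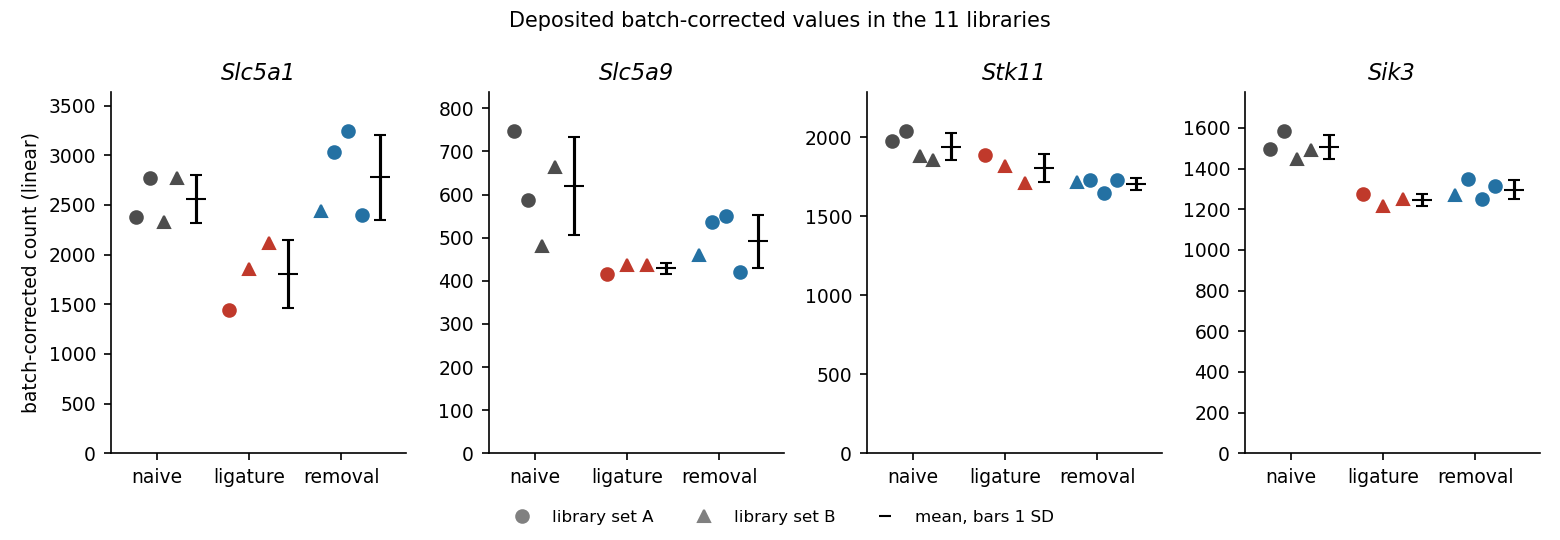
The authors' batch-corrected counts (linear axis from 0) of the carriers Slc5a1 and Slc5a9 and of the kinases Stk11 and Sik3 in each naive (n = 4), ligature (n = 3) and removal (n = 4) library, with group means and 1 SD; circles and triangles mark library sets A and B. Slc5a1 removal libraries overlap the naive ones, while Sik3 removal libraries (1248 to 1351) lie below all naive libraries (1445 to 1586), which they overlap in normalised counts (1182 to 1413 and 1385 to 1651). The share of genes tested without overlap in corrected values was not counted.

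The genes of the table whose profile over the 11 libraries lay nearest to each of the 4 were found by the root mean square difference of log2(normalised count + 1) after centring. Nearest to Slc5a1 were Pglyrp4, a peptidoglycan-binding protein, Tmprss4, a membrane serine protease, and Lce3d, a late cornified envelope gene, at 0.14, 0.21 and 0.21 log2 units, where Slc5a1 itself varied by 0.45. Pglyrp4 had log2 fold changes of -0.78, 0.01 and 0.79 in the 3 comparisons, side by side with -0.69, 0.23 and 0.92 for Slc5a1. It was picked for nearness over these same libraries, so this likeness is no separate result. Nearest to Ppp1r3b were Fam81a, the scaffold protein gene Iqgap2 and the transcription factor gene Nfic, at 0.30, 0.34 and 0.36, against 0.54 for its own variation. Nearest to Pfkp were Zfp516, the fatty acid desaturase gene Scd2 and Camta1, at 0.09 to 0.12 against 0.21. Nearest to Stk11 were Cracdl, Scaf1 and Ralgds, at 0.08 to 0.09 against 0.12. None of the 4 genes was among the 3 nearest of another.

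The table could check the tissue label only in part. Of 14 lists of cell type markers with 78 genes, 11 had no gene in the table, basal keratinocytes, neutrophils, T cells and fibroblasts among them. Krt10, a keratin of upper epithelial layers and 1 of 9 markers of its list, was abundant in every library (81960 to 109641 naive, 116428 to 187178 ligature, 88347 to 162606 removal). It moved with the ligature by 0.64 ± 0.22 and stood lower in set B (-0.48 ± 0.13). Cd68, 1 of 6 macrophage markers, had 221.9 to 335.7 counts in naive, 170.4 to 190.6 in ligature and 208.2 to 237.8 in removal libraries. Smr2, 1 of 6 salivary gland markers, had 0 reads in the naive libraries, 2 to 5 in the ligature libraries and 0 to 7 after removal. The part of these cell populations in the values of Slc5a1, Ppp1r3b, Pfkp and Stk11 was not tested.

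Exons of Pfkp and Stk11 overlap those of a gene on the opposite strand in the GENCODE M21 annotation, Pitrm1 and Cbarp. The library kit keeps strand, but the strand setting of the counting is not given in the sources used here, so reads of the overlapped stretches could belong to either gene. No such overlap was found for Slc5a1, Ppp1r3b, Slc5a9 or Sik3.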

How the data were processed

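RNA of gingival epithelium in 11 libraries was read from 1 deposited table of 993339 rows, of which 178 named a gene. Raw counts per gene were deposited by the authors. The authors also deposited normalised values, a linear signal, and each is the raw count over a size factor of its library, between 0.757 and 1.21. Batch-corrected values, treated as a score because some are below 0, were deposited by the authors on the same scale. Per the submitters' processing notes, the build was GRCm39 and the tools included DESeq2 1.36.0, HTSeq 2.01, TopHat2 2.1.1 and cutadapt 2.10; their roles are not stated. The counts of the 178 genes summed to 282274 to 503570 per library, which is not the library depth; the depth is unknown. Replicates differed beyond counting noise (smallest chi-square per degree of freedom 20.4) and none was merged.

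The test was the quasi-likelihood F test of edgeR 4.0.16 in R 4.3.3, with 1 fit of 11 libraries with a mean per group, deposited size factors, the default expression filter (176 genes kept) and Benjamini-Hochberg adjustment over them, two-sided. Calls are at adjusted p under 0.05; they refer to a selected table, not to the transcriptome. The fit was tested on simulated data. Library sets were the best of 957 divisions by the fit of corrected on normalised values (median residual 3.73e-05% of the mean, next 1.57%). Alternatives were 2 scalings computed over the table (TMM and median of ratios), DESeq2 1.42.0, no filter, a replicate block, the set as a term, limma 3.58.1 on log2(value + 1) of normalised and corrected values, and each library left out. Named genes were the 4 genes, pathway and marker list genes in the table and the 3 nearest genes of each, without predicted models. Genes, lists and tests were chosen with earlier results of these data known.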

Additional observations from a re-analysis of the deposited data

Results flagged for a closer look

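Among 21 groups of 4 libraries examined, over the 4 genes and the list genes of the table, 2 had a library standing apart by Dixon's criterion, and chance gives about 1 in 20. Vegfa had 1462 normalised counts in naive replicate 1, the highest of the naive libraries. Smr2 had 7.816 normalised counts in removal replicate 1 and 0 in the other removal libraries. None of the 8 naive and removal groups of Slc5a1, Ppp1r3b, Pfkp and Stk11 had such a library. The ligature groups were not examined, and there Pfkp had 3006 in library 1 against 2154 and 2193 in the others.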

How the results depend on the processing

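Counts of the 4 genes called for removal against naive, 0 at first, were 2 with TMM, 1 with the set as a term and 1 with limma on batch-corrected values. The table counts under those settings were 73, 126 and 122, against 66. For removal against ligature, 4 of the 4 genes were called with median-of-ratios factors and 1 with the replicate block, which left 8 table calls of 35 and lost the Slc5a1 call. The table count with median-of-ratios factors in that comparison is not given here, so nothing is read from the 4. Leaving out 1 library gave 0 to 2 of the 4 genes and 0 to 49 table calls in that comparison, and 38 to 78 table calls for removal against naive. In the ligature comparison with naive, 2 or 3 of the 4 genes were called under every alternative run. Table calls there ran from 114 to 157, against 150 in the main fit.

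Signs turned in these values. With TMM and median-of-ratios factors the ligature values became 0.233 and 0.232 for Stk11, 0.036 and 0.035 for Sik3 and 0.287 and 0.284 for Vegfa, and Sik3 for removal against ligature became -0.028 and -0.075. For removal against naive Ppp1r3b became 0.178 and 0.127, and 0.045 with limma on corrected values, and with TMM Stk11 became 0.024 and Sik3 0.009. With 1 library left out, Vegfa with the ligature ranged from -0.213 to 0.052, Ppp1r3b for removal against naive from -0.196 to 0.054 and Stk11 for removal against ligature from -0.109 to 0.016. The TMM shift was common to the table, whose median for ligature against naive moved from -0.38 to -0.02; for the other changes the cause was not tested.

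The labels tie no library numbers together. Deviations of same-numbered libraries from the group means correlated at -0.48 to 0.53 over genes, above 0.1 in 2 of 10 pairs. Among these 10 same-numbered pairs, those within a library set ran from 0.1 to 0.53 and those across sets from -0.48 to -0.02. Because the values vary with the set, they cannot decide whether same-numbered libraries pair. The replicate block changed no other call of the 4 genes. The 3 nearest genes of each were shared in 12 of 12 cases with a pseudocount of 10 or TMM and in 8 with corrected values. With 3 or 4 libraries a group and a selected table, the depth per library is unknown and small shifts such as that of Stk11 are not resolved.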
